A study of Homo sapiens with 9 samples.

Results

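The stress and wound keratins KRT6A, KRT6B, KRT6C, KRT16 and KRT17 were followed through 9 RNA-seq libraries of HaCaT cells, an established line of spontaneously immortalized human keratinocytes. The 5 genes were taken by name, and their Ensembl IDs were found among the 78899 gene IDs listed for each library. The series set out to describe progenitor-associated states within the line. There were 3 libraries of a sorted subpopulation named BD, 3 of a sorted subpopulation named NBD and 3 of the cell line itself, named control. The labels do not spell out the names BD and NBD, and the sources used here do not give the markers of the sort. All 9 libraries share the same line and the same growth medium, a high-glucose DMEM with fetal bovine serum that the labels mark as low in calcium. The subpopulations went through fluorescence-activated sorting, and no sort is given for the control. A single immortalized line stands for keratinocytes here, and nothing in the labels tells whether each replicate was a culture of its own, so the p-values reflect the spread between these libraries, which may be technical.

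Keratins build the intermediate filaments of epithelial cells as obligate pairs of a type II and a type I chain. KRT6A, KRT6B and KRT6C are type II chains, and their type I partners are KRT16 and KRT17. In human skin these keratins are made constitutively in the hair follicle, the nail bed and the palms and soles, and between the follicles they are switched on after wounding and in inflamed, hyperproliferative skin such as psoriasis. KRT5 and KRT14 form the filament pair of resting basal keratinocytes. Keratinocytes in culture commonly carry stress keratins as well.

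Total counts ran from 25754757 to 28948743 in BD, from 25862752 to 29512856 in NBD and from 17128797 to 25782938 in control libraries. Control replicates 1 and 2 stood apart from the other 7 libraries over many genes, while control replicate 3 had values close to those of the sorted libraries. Those 2 libraries were also the shallowest, at 18054999 and 17128797 counts, and the part of depth in what follows was not tested. The keratinocyte identity of the material was checked with 10 marker genes, among them KRT5, TP63 and ITGB4, all of which exceeded 1 normalised CPM in every library (read counts relative to a scaled library total). Summed fibroblast, melanocyte and leukocyte markers reached at most 5.24, 5.63 and 0.414 CPM in any library. Summed endothelial markers were 11.9 to 18.9 CPM in BD, 6.74 to 16.3 in NBD and 2.61, 1.85 and 16.8 in control replicates 1, 2 and 3. They came mostly from CDH5, except in control replicates 1 and 2, where VWF was higher. Summed neuronal markers were 21.6 to 25.0 in BD, 17.9 to 45.3 in NBD and 96.9, 101.7 and 21.8 in control replicates 1, 2 and 3. NEFL held the highest single value, 74.0 in control replicate 2, and STMN2 stood at 0. MAP2 exceeded NEFL in control replicate 3 and in several sorted libraries. The part of these markers in the keratin values was not tested.

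The 3 KRT6 genes lie beside each other on chromosome 12 (KRT6A at chr12:52487174-52493257, KRT6B at chr12:52446651-52452126, KRT6C at chr12:52468516-52473785), and the type I genes on chromosome 17 (KRT16 at chr17:41609778-41615899, KRT17 at chr17:41619441-41624842), all on the minus strand of GRCh38 in the GENCODE 29 annotation. The coding sequences of the KRT6 genes differ at few bases, and their untranslated bases were not compared. Of 1695 coding bases, KRT6A differs from KRT6B at 43 and from KRT6C at 35, and KRT6B differs from KRT6C at 26. The 60 coding bases below, 663 to 722 of each coding sequence and all in exon 2, are shown because a read from here can be told between the 3 genes. Capitals mark the 9 positions at which the 3 are not all alike.
KRT6A, chr12:52491555-52491614: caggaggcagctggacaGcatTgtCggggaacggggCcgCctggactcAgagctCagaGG
KRT6B, chr12:52450439-52450498: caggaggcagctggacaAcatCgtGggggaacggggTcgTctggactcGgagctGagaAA
KRT6C, chr12:52472099-52472158: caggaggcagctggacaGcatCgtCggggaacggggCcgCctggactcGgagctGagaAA
Elsewhere the copies cannot be separated as easily, since KRT6A and KRT6C share an identical run of 349 coding bases. Windows of 100 coding bases found in no other GENCODE 29 gene make up 75.9% of KRT6A, 67.7% of KRT6B and 57.8% of KRT6C. The sources used here do not give how reads that match several genes were counted, so the split between the KRT6 genes is uncertain.

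The type I members are easier to tell apart. KRT16 and KRT17 share 77.3% of aligned coding bases, while KRT16 and the basal keratin KRT14 share 87.5%, with a longest identical run of 158 bases. Windows of 100 coding bases found in no other gene make up 91.6% of KRT16 and 99.6% of KRT17. The 15 pseudogene IDs of KRT16 and KRT17 in the files held 4 counts in all.

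KRT6A, the main KRT6 isoform of injured epidermis, was the type II member that carried nearly all KRT6 counts. It stood at 103, 137 and 169 normalised CPM in BD replicates 1, 2 and 3, and at 86.8, 246 and 183 in NBD replicates 1, 2 and 3. In the control it stood at 499, 630.5 and 189. Control replicates 1 and 2 lay above every sorted library, control replicate 3 lay inside the range of the sorted libraries, and BD and NBD overlapped. All 3 BD libraries lay below all 3 control libraries. The means were 136 ± 32.9 in BD, 172 ± 80.0 in NBD and 439.6 ± 227 in control (SD, n = 3 each).

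KRT6B, the KRT6 isoform best known from hair follicle and nail, was close to the limit of detection. It had 4, 8 and 16 counts in BD, 6, 6 and 17 in NBD and 3, 4 and 32 in control replicates 1, 2 and 3. Replicate 3 was the highest library in each group, and the groups overlapped. As a share of all KRT6 counts, KRT6B made up between 0.0307% in control replicate 1 and 0.633% in control replicate 3, where the 95% Wilson interval was 0.449% to 0.893%. KRT6C, whose mutations in humans are known from palmoplantar keratoderma, had 2, 1 and 2 counts in BD, 2, 3 and 2 in NBD and 2, 4 and 2 in control. A count of 3 corresponds to 0.102 to 0.175 CPM of the raw library totals, taken here without TMM scaling, so no difference in KRT6C was detectable at this depth. Intervals and floors here cover counting error only, as the protocol names no molecular identifiers.

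KRT17, the type I chain that also regulates protein synthesis and cell size in wound-edge keratinocytes, had the most reads per kilobase of the members in 7 libraries. Its levels were 367, 782 and 957 normalised CPM in BD replicates 1, 2 and 3 and 354, 478 and 702 normalised CPM in NBD. Control libraries had 179.7, 238 and 794. Replicate 1 was the lowest library of each sorted group, BD and NBD overlapped, and control replicates 1 and 2 lay below all sorted libraries while control replicate 3 lay among them. Means were 702 ± 303 in BD, 511 ± 177 in NBD and 404 ± 339 in control (SD, n = 3 each).

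KRT16, the type I partner of KRT6A and a marker of hyperproliferative epidermis, had fewer reads per kilobase than KRT17 and KRT6A in every library. It had 6.84, 9.42 and 10.4 normalised CPM in BD, 4.08, 6.21 and 7.48 in NBD and 1.02, 1.01 and 8.55 in control. Control replicates 1 and 2 held only 20 and 18 counts of KRT16, below every sorted library, and control replicate 3 held 227. The highest NBD library exceeded the lowest BD library, so these groups overlapped as well. Means were 8.88 ± 1.83 in BD, 5.92 ± 1.72 in NBD and 3.53 ± 4.35 in control (SD, n = 3 each).

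**Figure D1:**
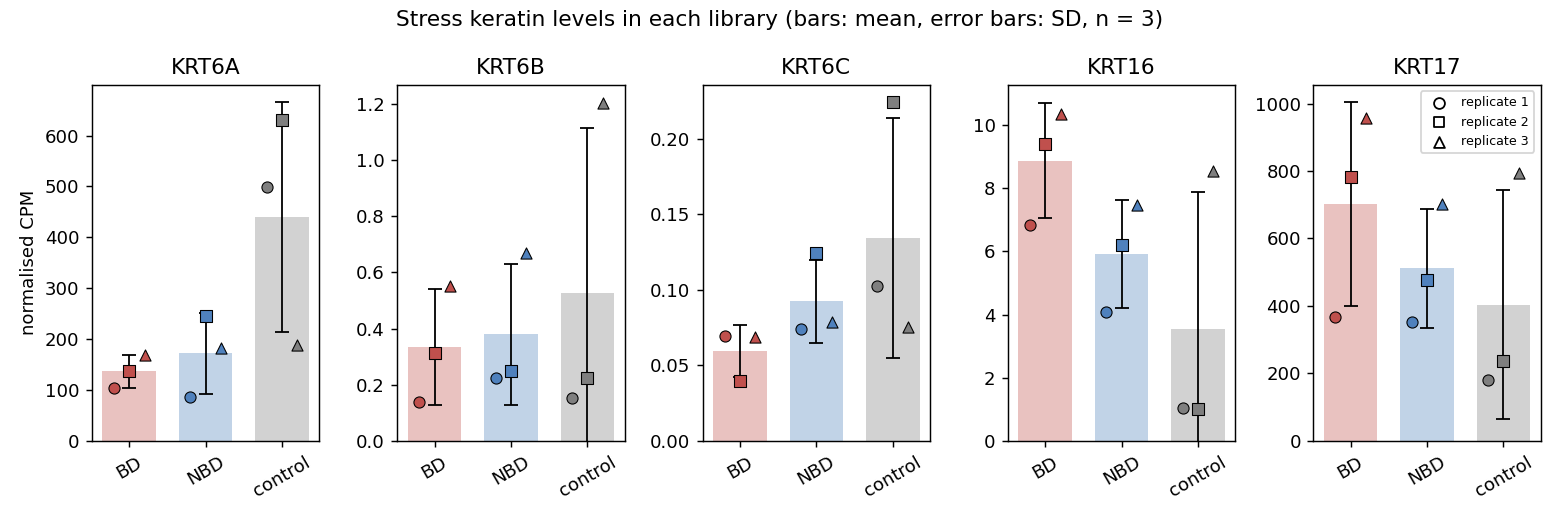
Normalised CPM of each stress keratin (vertical axes, linear and on their own scale per gene) in BD, NBD and control libraries. Bars show the mean, error bars the SD over 3 libraries (drawn down to 0 where they would pass below it), and symbols the replicates. In KRT6A, control replicates 1 and 2 (499 and 630.5) lie above all other libraries, and in KRT16 and KRT17 they lie below all others.

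Between BD and NBD, no stress keratin differed beyond the spread, which was estimated over all 9 libraries, control included. KRT17 averaged 702 ± 303 against 511 ± 177 normalised CPM in BD and NBD, and KRT16 8.88 ± 1.83 against 5.92 ± 1.72, while KRT6A averaged 136 ± 32.9 against 172 ± 80.0 (SD, n = 3 each). The log2 fold change of BD against NBD was 0.46 ± 0.55 (SE) for KRT17, 0.59 ± 0.69 for KRT16, -0.33 ± 0.45 for KRT6A and -0.18 ± 0.85 for KRT6B. Their p-values, adjusted by the Benjamini-Hochberg method over all 16921 genes tested with edgeR's quasi-likelihood test, were 0.921, 0.919, 0.934 and 0.987. KRT6C did not pass the filter on low counts and was not tested. None of the 4 tested members was called at an adjusted p under 0.05, and 0.0177% of all genes tested were called. None of the 4 had an unadjusted p under 0.05 either, against 991 of all genes, and none was called with DESeq2, which called 0.343% of genes, or with limma-voom, which called 0.0295%. These missing calls do not show equal expression. The 95% interval of the log2 fold change ran from -0.75 to 1.67 for KRT17, from -0.94 to 2.11 for KRT16 and from -1.33 to 0.67 for KRT6A. Fitted to the 6 BD and NBD libraries alone, these keratins had smaller SEs, at 0.44 ± 0.37, 0.57 ± 0.29 and -0.35 ± 0.34. Their unadjusted p-values in that edgeR fit were 0.258, 0.0753 and 0.338, and their adjusted p-values 0.743, 0.609 and 0.796. No member was called there either. In bulk RNA, fewer cells making a keratin and less of its RNA per cell cannot be told apart.

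Against the control cell line, KRT6A had means of 136 ± 32.9 in BD and 172 ± 80.0 in NBD against 439.6 ± 227 normalised CPM in control (SD, n = 3 each). KRT17 and KRT16 had higher means in the sorted subpopulations than in control. For KRT6A the highest BD library, at 169, lay below the lowest control library, at 189, while NBD overlapped the control. For KRT16 and KRT17 both BD and NBD overlapped the control through control replicate 3. The KRT6A log2 fold change was -1.69 ± 0.46 in BD against control, with an unadjusted p of 0.00418 and an adjusted p of 0.333, and -1.36 ± 0.46 in NBD against control, with an unadjusted p of 0.0138 and an adjusted p of 0.539 (edgeR). KRT16 had log2 fold changes of 1.31 ± 0.70 in BD and 0.73 ± 0.70 in NBD against control, with adjusted p-values of 0.402 and 0.676. KRT17 had 0.80 ± 0.55 and 0.34 ± 0.55, with adjusted p-values of 0.493 and 0.806, and KRT6B had -0.70 ± 0.83 and -0.52 ± 0.83, with 0.684 and 0.805. None of the 4 tested members was called in either comparison, and 0% of all genes were called by edgeR in each, although 2334 and 1545 genes had an unadjusted p under 0.05 in BD and NBD. DESeq2 called 0.987% of genes in BD against control, KRT6A among them with a log2 fold change of -1.70 and an adjusted p of 0.0243, and 0.177% in NBD against control with no member called. limma-voom called 0.00591% of genes, a single gene, in BD against control and 0 in NBD against control, with no member in either. The 2 comparisons share the same 3 control libraries and are not independent of each other.

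The outcome against control turned on which control libraries were used. Without control replicate 3, edgeR called 24.3% of 17755 genes in BD against control (13.8% higher, 10.5% lower) and 18.2% in NBD against control (11.6% higher, 6.56% lower). In each, 3 of the 4 tested stress keratins were called, 2 higher and 1 lower. KRT6A was lower, with log2 fold changes of -2.04 ± 0.36 in BD (adjusted p = 0.00298) and -1.70 ± 0.36 in NBD (adjusted p = 0.00937). KRT16 was higher, with 3.13 ± 0.37 in BD (adjusted p = 3.83e-04) and 2.55 ± 0.37 in NBD (adjusted p = 0.00136). KRT17 was higher, with 1.76 ± 0.41 in BD (adjusted p = 0.0115) and 1.31 ± 0.40 in NBD (adjusted p = 0.0453). KRT6B had 0.83 ± 0.84 and 1.02 ± 0.84, the opposite sign to the fit of all 9 libraries, and was not called. With control replicate 3 alone as control, and the spread taken from BD and NBD, KRT6A had -0.48 ± 0.47 in BD and -0.15 ± 0.47 in NBD, KRT16 had 0.05 ± 0.40 and -0.54 ± 0.39, and KRT17 had -0.18 ± 0.51 and -0.64 ± 0.50. No member and 0% of genes were called in either comparison against that library, where 208 and 249 genes had an unadjusted p under 0.05 in BD and NBD. Between BD and NBD, edgeR called 0.0901% of genes without control replicate 3 and 0.0478% with it as the only control, and no member in either. Whether control replicates 1 and 2 or control replicate 3 better represent the cell line was not tested. The protocol names a pair of RNA kits, and the sources used here do not assign libraries to them.

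**Figure D2:**
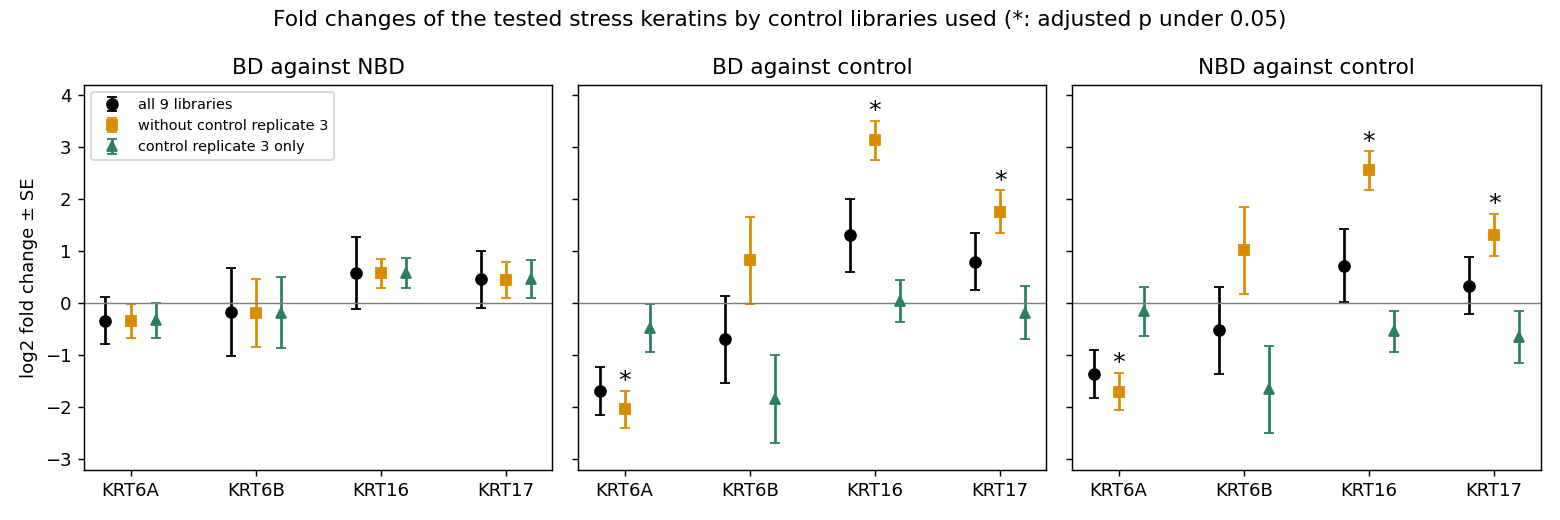
Log2 fold changes ± SE (vertical axis) of KRT6A, KRT6B, KRT16 and KRT17 in BD against NBD and in each of BD and NBD against control, with all 9 libraries (circles), without control replicate 3 (squares) and with control replicate 3 alone as control (triangles). The fold changes of BD against NBD barely move between the 3 fits, but their SEs are widest with all 9 libraries. Against control, KRT16 in BD lies at 1.31, 3.13 and 0.05.

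Read as a share of keratin RNA, the stress keratins took a similar total in all control libraries but from different members. Over the 55 protein-coding keratin genes, the 5 stress keratins took 9.98%, 14.4% and 17.7% of counts in BD replicates 1, 2 and 3, 11.3%, 14.1% and 17.1% in NBD, and 17.3%, 17.9% and 17.5% in control. The means were 14.02% ± 3.86 in BD, 14.2% ± 2.89 in NBD and 17.6% ± 0.327 in control (SD, n = 3 each), and no 95% Wilson interval of a single library was wider than 0.54 percentage points. The sorted libraries thus spread over more than 5 percentage points within each group, whereas the control libraries lay within 1 point of each other. KRT6A took 2.15%, 2.13% and 2.62% of keratin counts in BD, 2.21%, 4.73% and 3.50% in NBD and 12.7%, 13.0% and 3.34% in control replicates 1, 2 and 3. KRT17 took 7.68%, 12.1% and 14.9% in BD, 9.00%, 9.20% and 13.4% in NBD and 4.56%, 4.90% and 14.02% in control. Among the 5 stress keratins, KRT6A thus took the largest share in control replicates 1 and 2, and KRT17 in the other 7 libraries. KRT16 took 0.143% to 0.161% in BD, 0.104% to 0.143% in NBD, against 0.0259%, 0.0208% and 0.151% in control replicates 1, 2 and 3. No test was run on these shares.

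**Figure D3:**
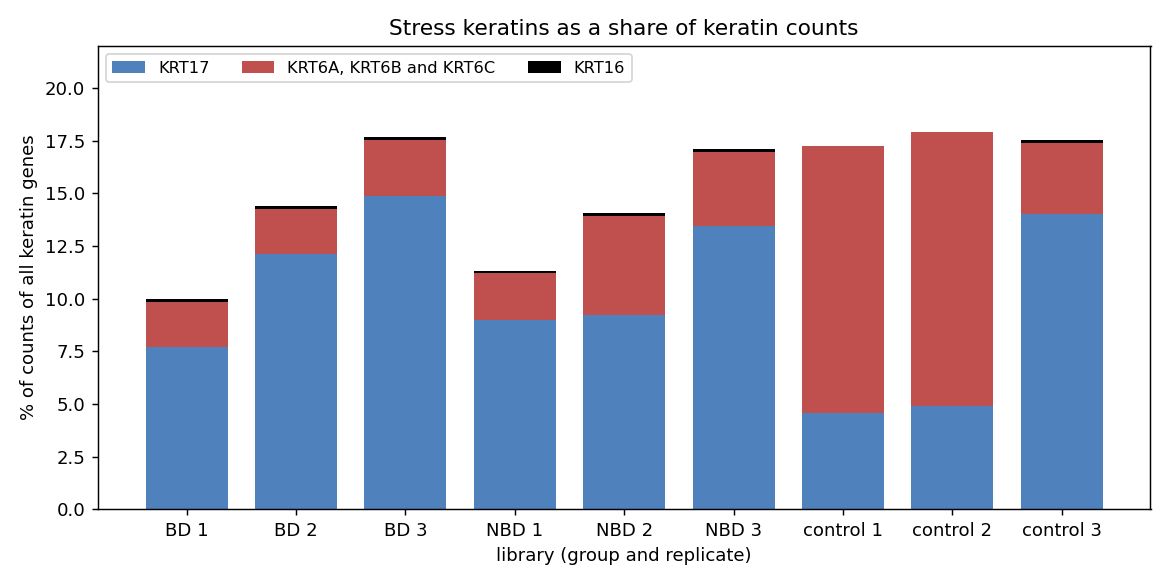
Share of all keratin counts, in percent (vertical axis), taken by KRT17, by the 3 KRT6 genes together and by KRT16 in each library (horizontal axis). The stacked total is 17.3% to 17.9% in the control libraries, where KRT6A fills 12.7% and 13.0% of keratin counts in replicates 1 and 2 and 3.34% in replicate 3.

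Levels of different genes were compared per kilobase of each gene's longest coding transcript. On that scale KRT17 stood first among the members in 7 libraries, followed by KRT6A, KRT16, KRT6B and KRT6C, and KRT6A stood above KRT17 in control replicates 1 and 2. KRT17 was 4.995, 7.97 and 7.94 times KRT6A in BD, 5.70, 2.72 and 5.37 times in NBD and 0.504, 0.528 and 5.88 times in control. KRT16 was always a small fraction of its type II partner KRT6A, at 0.0935, 0.0965 and 0.0864 of KRT6A per kilobase in BD, 0.0659, 0.0355 and 0.0575 in NBD and 0.00288, 0.00225 and 0.0636 in control. The lowest BD ratio was above the highest NBD ratio for KRT16 to KRT6A, a contrast picked after the values were seen and not tested. Among all 55 keratin genes ranked by level per kilobase, KRT17 ranked 6, 4 and 3 in BD, 5, 4 and 3 in NBD and 8, 8 and 3 in control. KRT6A ranked 10 in every BD library, 10, 9 and 10 in NBD and 5, 5 and 10 in control. KRT16 ranked 12, 12 and 11 in BD, 13, 13 and 12 in NBD and 13, 13 and 11 in control.

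The basal pair gives a yardstick for these levels. KRT6A was 0.157, 0.296 and 0.354 of KRT5 per kilobase in BD, 0.187, 0.403 and 0.619 in NBD and 0.541, 0.556 and 0.564 in control, so the ratio was alike in the 3 control libraries although KRT6A and KRT5 were both higher in replicates 1 and 2. KRT17 was 2.29, 2.32 and 2.54 times KRT14 in BD, 2.57, 1.10 and 1.86 times in NBD and 0.564, 0.619 and 2.33 times in control. KRT14 itself did not set control replicates 1 and 2 apart, at 321 and 387 normalised CPM against 343 in control replicate 3. KRT75, a type II keratin of the hair follicle companion layer that neighbours the KRT6 genes, had 1 count in BD replicate 1 and 0 in the other 8 libraries.

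Across the 9 libraries, KRT16 followed the type I member KRT17 and not KRT6A. Pearson's r of log2 normalised CPM was 0.915 between KRT16 and KRT17, -0.766 between KRT16 and KRT6A and -0.528 between KRT17 and KRT6A. Over the 7 libraries other than control replicates 1 and 2, KRT16 and KRT17 kept an r of 0.875, while the values of KRT6A were 0.472 with KRT16 and 0.558 with KRT17, so the negative values rest on those 2 libraries. KRT6A was closest to KRT14 among the keratins compared in the 7 libraries, with an r of 0.936, against 0.632 over all 9. KRT6B, at its low counts, had an r of 0.764 with KRT17 over 9 libraries. These values describe 9 or 7 libraries that share a line and, in part, a group, and no p is attached to them.

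**Figure D4:**
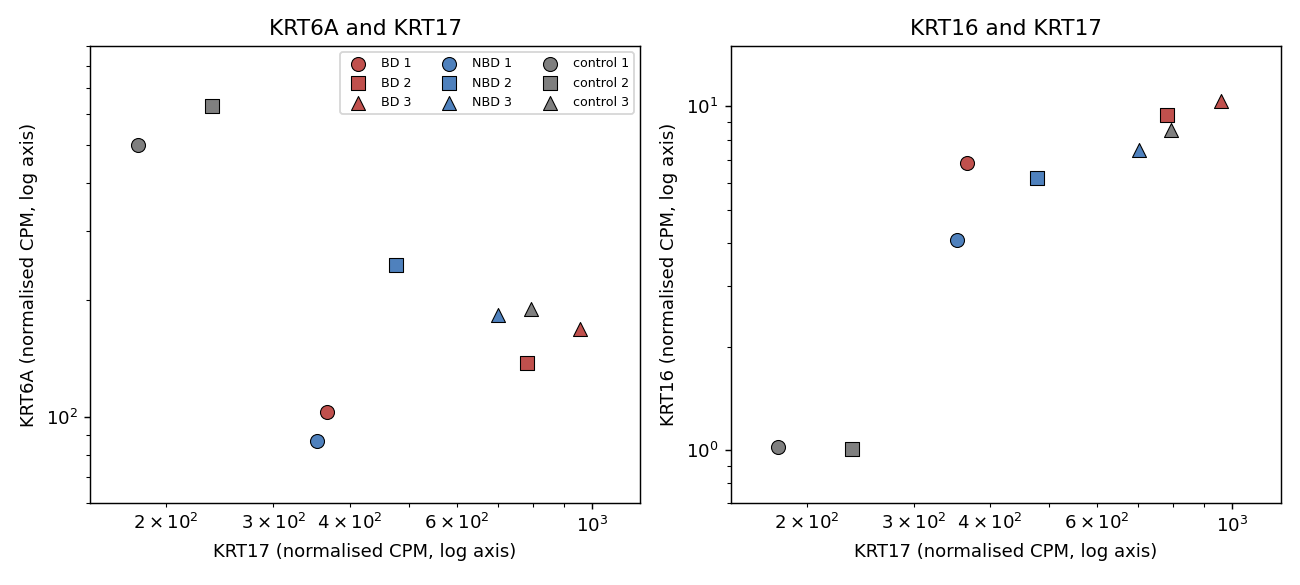
Normalised CPM of KRT6A (left) and KRT16 (right) against KRT17, both axes logarithmic, with 1 point per library, coloured by group and shaped by replicate. Control replicates 1 and 2 stand apart at low KRT17 with high KRT6A (499 and 630.5) and low KRT16 (1.02 and 1.01), and KRT16 climbs with KRT17 over the remaining 7 libraries.

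Other genes of the stress keratin programme were read from 5 lists: other keratins, ligands and receptors that act upstream, transcription factors known to act on these genes, proteins that link or regulate keratin filaments, and companions of wounded or hyperproliferative epidermis. With all 9 libraries edgeR called none of the 65 list genes tested in any comparison, and 5, 10 and 4 of them had an unadjusted p under 0.05 in BD against NBD and in BD and NBD against control, beside 991, 2334 and 1545 of all 16921 genes. limma-voom called none of the 65. DESeq2 called 1 in BD against NBD, 1 in BD against control and 0 in NBD against control. The first was TNFRSF1A, the main receptor for TNF, at a log2 fold change of 0.67 ± 0.15 and an adjusted p of 0.461 by edgeR, and the second was FABP5, a fatty acid carrier of keratinocytes, both named after their values were seen. TNFRSF1A had 113, 120.2 and 119 normalised CPM in BD, 78.0, 72.9 and 70.1 in NBD and 90.0, 102.0 and 83.3 in control, so BD and NBD did not overlap. FABP5 had 1.285, 2.356 and 1.758 in BD, 1.185, 7.24 and 2.40 in NBD and 13.4, 18.7 and 1.77 in control replicates 1, 2 and 3. Control replicate 3 thus lay inside the BD range of FABP5, and only control replicates 1 and 2 lay above it. In BD against NBD the median log2 fold change was 0.22 over 11 tested of 24 other keratins, 0.22 over 15 of 17 ligands and receptors, 0.15 over 18 of 19 transcription factors, 0.13 over all 10 filament linkers and -0.54 over 11 of 15 companions, beside -0.02 over all genes tested. In BD against control the same medians were 0.02, 0.46, 0.33, 0.00 and -0.07, beside 0.03 over all genes. In NBD against control they were 0.11, 0.28, 0.12, -0.09 and 0.73, beside 0.04 over all genes. The medians against control moved with the control libraries used, each over the genes tested in that fit. In NBD they were 0.00, 0.58, 0.20, -0.21 and 4.53 without control replicate 3, beside 0.08 over all genes. With control replicate 3 as the only control they were -0.05, -0.19, -0.39, -0.07 and -0.57, beside 0.03. The companions in BD had 3.41 and -0.99 in these 2 fits.

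Among the upstream genes, FOS, a subunit of the AP-1 factor that binds keratin promoters, had 186, 387 and 589 normalised CPM in BD, 190.5, 338 and 472.5 in NBD and 2.76, 3.31 and 518 in control. JUNB, another AP-1 subunit, ran from 199 to 443.5 over the 6 sorted libraries and was 65.0, 83.5 and 436 in control. Both were lowest in control replicates 1 and 2. EGFR, the receptor through which growth factors induce KRT6 and KRT16, overlapped between all 3 groups, at 542, 447 and 478 in BD, 527, 424 and 279 in NBD and 575, 555.5 and 431 in control. IFNGR1, a chain of the receptor for interferon gamma, which induces KRT17, had 175 to 179 in BD, 148 to 258.5 in NBD and 80.1, 75.6 and 215 in control replicates 1, 2 and 3. The EGFR ligands EREG, HBEGF and TGFA were chosen after their values were seen. EREG had 155 to 174 in BD, 100.5 to 168 in NBD and 8.79, 9.25 and 169 in control, and HBEGF had 74.0 to 145.5 in BD, 80.3 to 104 in NBD and 11.2, 11.5 and 114 in control. TGFA ran the other way, with 40.4 to 59.0 in BD, 38.5 to 56.5 in NBD and 122, 130.5 and 46.8 in control.

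Without control replicate 3, 8 of 16 tested ligands and receptors were called higher and 3 lower in BD against control, and 5 higher and 3 lower in NBD against control, beside the 24.3% and 18.2% of all genes called in these fits. EREG rose by 4.21 ± 0.28 in BD and 3.99 ± 0.27 in NBD on the log2 scale (adjusted p = 1.41e-05 and 1.56e-05, edgeR). Of 19 transcription factors, 8 were called higher and 1 lower in BD, and 7 higher and 0 lower in NBD. The lower one in BD was GLI2, a Hedgehog pathway factor named after its values were seen, which did not pass the filter with all 9 libraries and entered this fit only through its 12 counts in each of control replicates 1 and 2, so its call is no sign of a change. FOS rose by 7.01 ± 0.63 in BD and 6.80 ± 0.63 in NBD (adjusted p = 8.71e-05 and 1.10e-04, edgeR).

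Among other keratins, KRT13, a type I keratin of internal stratified epithelia, had 389, 1122 and 1479 normalised CPM in BD, 367, 734 and 1328 in NBD and 4.19, 4.43 and 1427 in control. KRT19, a type I keratin without a fixed partner, had 859, 1170.0 and 1085 in BD, 694, 618 and 736 in NBD and 388, 468 and 816 in control. All 3 BD libraries of KRT19 exceeded all 3 NBD libraries, with a log2 fold change of 0.60 ± 0.28 and an adjusted p of 0.814 (edgeR). KRT5 had 720, 509 and 521 in BD, 508, 668 and 323 in NBD and 1012, 1241 and 367.5 in control. Without control replicate 3, 3 of 12 tested other keratins were called higher and 2 lower in BD against control, and 2 higher and 3 lower in NBD against control. Over all genes, 13.8% were called higher and 10.5% lower in BD, and 11.6% higher and 6.56% lower in NBD. KRT5 fell in both, by 0.94 ± 0.29 in BD and 1.16 ± 0.29 in NBD on the log2 scale (adjusted p = 0.0361 and 0.0197, edgeR).

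Among the filament linkers, DSP, desmoplakin, which ties keratins to desmosomes, had 370, 272 and 359 normalised CPM in BD, 403, 542 and 245 in NBD and 895, 839.9 and 364 in control. DST, whose epithelial form anchors keratins to hemidesmosomes, had 354, 194 and 244 in BD, 668, 484 and 341.5 in NBD and 493, 221 and 333.5 in control, with an unadjusted p of 0.0255 and an adjusted p of 0.814 for BD against NBD (edgeR). Without control replicate 3, DSP was the only linker of 10 called, lower in BD by a log2 fold change of -1.37 ± 0.29 and in NBD by -1.12 ± 0.29 (adjusted p = 0.00709 and 0.0230, edgeR), beside the 24.3% and 18.2% of all genes called in these fits.

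Among the companions, LCN2, a secreted iron-siderophore carrier of inflamed epidermis, had 811, 1476 and 2089 normalised CPM in BD, 888, 1331 and 2443 in NBD and 1.02, 1.23 and 1808 in control. SERPINB3, a protease inhibitor raised in psoriasis, had 59.8, 100.1 and 209.5 in BD, 56.7, 85.6 and 345 in NBD and 3.42, 4.99 and 245 in control. Without control replicate 3, 4 of 12 tested companions were called higher and 3 lower in BD against control, and 6 higher and 1 lower in NBD against control. These counts stand beside the 24.3% and 18.2% of all genes called in the same fits. On the higher side, control replicates 1 and 2 held only 0 and 1 counts of S100A7, 2 and 4 of S100A8 and 1 and 0 of PI3. These genes entered the fits only through the sorted libraries, so a higher call of any of them would be no sign of a change. Among the lower ones were IVL, a precursor of the cornified envelope, and FABP5 in BD, and FABP5 in NBD. IVL had 0, 2 and 2 counts in BD and 21, 21 and 0 in control replicates 1, 2 and 3. Its call thus rests on low counts in control replicates 1 and 2 and is no sign of a change. SPRR1B, the other gene counted as lower in BD, did not pass the filter with all 9 libraries and entered this fit only through its 8 and 10 counts in control replicates 1 and 2, so its call is no sign of a change. These names were taken after the values were seen.

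**Figure D5:**
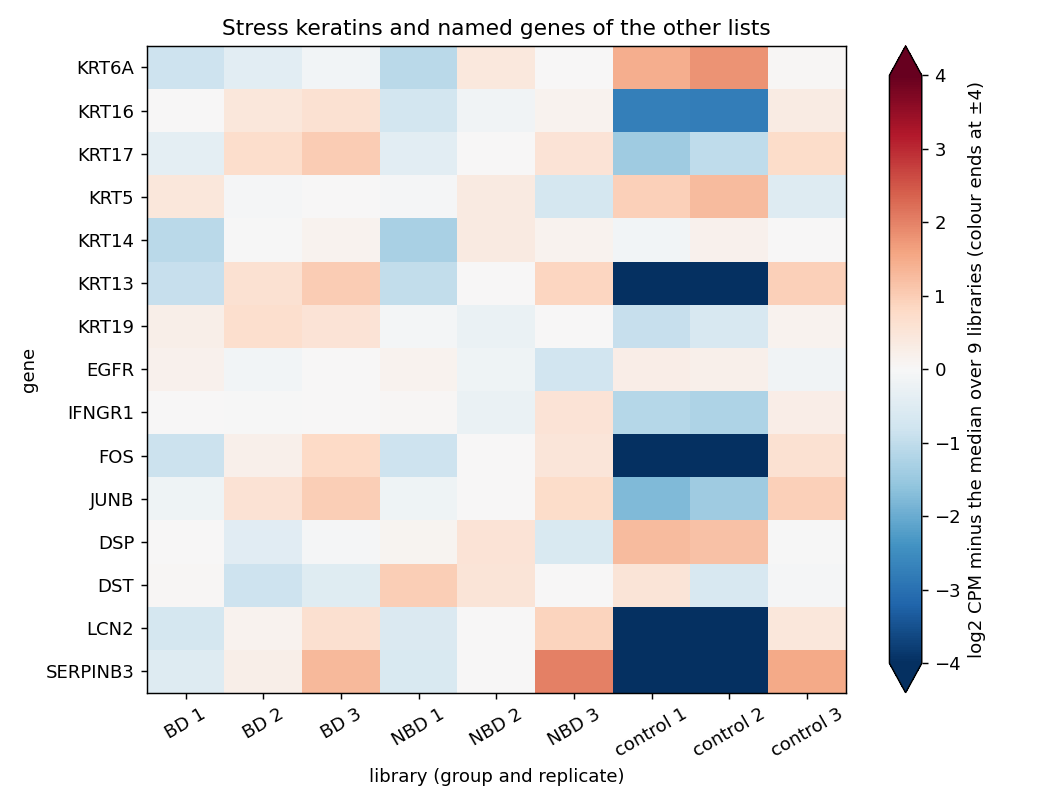
Log2 normalised CPM of KRT6A, KRT16, KRT17 and 12 other genes (rows) in each library (columns), each minus the gene's median over the 9 libraries, with colours ending at 4 in either direction. Control replicates 1 and 2 differ from control replicate 3 in KRT6A, KRT16 and KRT17 and most of all in KRT13, FOS, LCN2 and SERPINB3.

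The genes whose levels were most like each member's were taken from 12588 protein-coding genes by Pearson's r of log2 normalised CPM. Over all 9 libraries KRT6A was closest to COPZ2, a coatomer subunit (r = 0.987), to the tetraspanin TSPAN15 (0.987) and to EPB41L4B (0.981), and 97 genes exceeded an r of 0.95. TSPAN15 had 9.87, 14.02 and 15.8 normalised CPM in BD, 9.19, 23.7 and 14.4 in NBD and 35.3, 41.4 and 15.1 in control. KRT16 was closest to the mitochondrial aldehyde dehydrogenase ALDH2 (0.996), to the lipid phosphatase PLPP2 (0.995) and to TLCD2 (0.994), with 418 genes above 0.95. KRT17 was closest to the secreted protease KLK10 (0.992), to ID1, an inhibitor of DNA binding by helix-loop-helix factors (0.990), and to the arginine-synthesis enzyme ASS1 (0.989), with 134 genes above 0.95. KRT6B was closest to the DNA sensor AIM2 (0.967), NREP (0.945) and HES6 (0.945), with 1 gene above 0.95.

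Over the 7 libraries other than control replicates 1 and 2, none of the 3 closest genes of KRT6A or KRT16 stayed the same. There KRT6A was closest to SPRY1, an inhibitor of receptor tyrosine kinase signalling (0.985), and to ANKIB1 (0.982). KRT16 was closest to SNX12 (0.996), to the endoplasmic reticulum chaperone CALR (0.995) and to CDC42SE1 (0.994). KRT17 was closest to the nicotinamide riboside kinase NMRK1 (0.990), to RABAC1 (0.990) and again to ASS1 (0.987). ASS1 had 94.7, 229 and 323.5 normalised CPM in BD, 73.5, 123.4 and 246 in NBD and 44.2, 48.2 and 249 in control. KRT6B was closest to NREP (0.979), AIM2 (0.961) and EPHA5 (0.961). With 7 to 9 libraries and 12588 genes, high values of r are common, and no p is given.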

How the data were processed

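RNA of 9 HaCaT libraries (3 BD, 3 NBD, 3 control) was sequenced from stranded, rRNA-depleted, paired-end libraries, per the labels' protocols. The values are raw read counts per gene, deposited by the authors with no normalization, and no row names anything other than a gene. Per the submitters' processing notes, FastQC 0.74, Trimmomatic 0.39, STAR 2.7.11b and featureCounts were used on the reads, with the build GRCh38. The sources used here do not give the annotation release, the strand setting or how reads matching several genes were counted.

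Here, counts were fitted with edgeR 4.0.16 in R 4.3.3: filterByExpr with a minimum count of 10 (16921 genes kept), TMM scaling and 1 quasi-likelihood fit to all 9 libraries that had a mean for each group and no covariate (6 residual degrees of freedom). The filter was applied anew whenever libraries were left out. Two-sided p-values were adjusted over every gene tested by the Benjamini-Hochberg method, and a gene was called under 0.05. The procedure was tested on simulated data with the spread of the 9 libraries. In BD against NBD it recovered 0 of 67 genes changed 1.5-fold, 13 of 67 changed 2-fold and 58 of 66 changed 4-fold, with 3 false calls. The changed genes were drawn only from genes above a set mean level, so the recovery does not cover low-count genes such as KRT6B. Each library was simulated separately around a common mean, without the split between the control replicates. Normalised CPM are counts divided by the library total after TMM scaling. Alternatives were RLE size factors, no filter, at least 1 CPM in at least 3 libraries, DESeq2 1.42.0, limma-voom (limma 3.58.1), a block for the replicate number, the 6 libraries compared, near-identical copies summed, control replicate 3 as the only control, and each library left out. Symbols came from a gene name table and coordinates, transcript lengths and sequences from GENCODE 29, and coding sequences were aligned with mafft 7.526.

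The members and lists were chosen with earlier results of these data known. Named genes are the 5 members, KRT5, KRT14 and KRT75, in each list the called members or else the 2 with the highest mean level, and the 3 genes most like each member that passed the filter, over 9 and over 7 libraries. A few items that these rules select are not reported here. Same-group libraries differed by more than sampling noise, with a chi-square per degree of freedom of at least 14.89, so none was counted as a duplicate. Total counts of 17128797 to 29512856 set the counting error of each library, and low counts limit KRT6B and KRT6C. The SEs of the fold changes also hold the spread between libraries. KRT17, with 3518 to 27779 counts per library, still had an SE of 0.55 in BD against NBD.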

Additional observations from a re-analysis of the deposited data

How the results depend on the processing

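Of 207 fold changes of single keratins under the alternatives, 188 kept their direction and their side of the threshold, 10 became called and 9 changed sign. No scaling moved the median of all genes by more than 0.1 on the log2 scale, and the keratin shares moved by less than 1 SD under every alternative. In BD against NBD, where edgeR called 3 genes, 0 were called with the replicate block, 5 with the 6 libraries compared or with limma-voom, 9 with control replicate 3 as the only control, 58 with DESeq2, 131 with no filter and 0 to 16 when a library was left out. In BD against control, where edgeR called 0, limma-voom called 1, DESeq2 167, no filter 1162 and the fits without 1 library 0 to 4317. In NBD against control, where edgeR called 0, DESeq2 called 30, no filter 594 and the fits without 1 library 0 to 3228. Stress keratins called in BD against control were 1 with DESeq2, 2 with no filter (KRT6A and KRT16) and 0 to 3 without 1 library. In NBD against control they were 1 with no filter (KRT6A) and 0 to 3 without 1 library. The cause of these moves was not tested.

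Signs changed for KRT17 in BD against control (-0.18) and for KRT16 (-0.54) and KRT17 (-0.64) in NBD against control with control replicate 3 as the only control. Over the fits without 1 library, KRT17 in NBD against control ran from -0.0147 (without control replicate 1) to 1.31. KRT6B ran from -1.25 to 0.83 in BD against control and from -1.21 to 1.02 in NBD against control, the highest without control replicate 3. Between BD and NBD, KRT6B gave 0.18 with BD replicate 1 left out and 0.51 with NBD replicate 3 left out, and over all fits without 1 library it ran from -0.739 to 0.512. KRT6A there ran from -0.653 to 0.0173, its highest without NBD replicate 2.

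The replicate numbers were not taken as a pairing: deviations from the group means correlated above 0.1 in 6 of 9 same-numbered pairs (0.036 to 0.612), and 14 of 18 comparisons of a library with another group gave the highest r with its own number, which is a hint from the data and not from the design. At each replicate number KRT16 and KRT17 were higher in BD than in NBD, while KRT6A and KRT6B were not. The block called 0 genes in all 3 comparisons and no stress keratin. With it, BD against NBD gave 0.41 ± 0.29 for KRT17, 0.63 ± 0.52 for KRT16 and -0.25 ± 0.42 for KRT6A. In BD against control, 3 stress keratins and 3562 of 16921 genes had an unadjusted p under 0.05 (edgeR). In NBD against control these were 1 and 2499, and in BD against NBD 0 and 1450. Depth limits KRT6B and KRT6C most, since neither exceeded 32 counts in any library.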
